A study of Mus musculus with 16 samples.

Results

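Nuclear receptors are transcription factors that bind DNA and, in most cases, a small lipid-soluble ligand. The members described here are the rows of the deposited count tables whose symbol belongs to a list of 35 mouse genes of this family, out of 46878 gene rows used. They were followed in 16 bulk RNA libraries from sorted epithelium, with 4 libraries in each of 4 groups. DC goblet cells and Si8 goblet cells were mCherry-positive live cells of the distal colon (DC) and of section 8 of the small intestine (Si8), and DC other cells and Si8 other cells were the mCherry-negative live epithelial cells of the same regions. All groups came from RedMUC298trTg mice, which carry a transgene of mCherry-tagged MUC2, the main gel-forming mucin of goblet cells, at 6 to 8 weeks of age, so the mCherry-negative cells carried the transgene too; its promoter is not named in the labels. A C57Bl6 mouse without mCherry set the gate. Goblet lysates went through MinElute columns and the other lysates through Mini columns, so column type and sort cannot be told apart. Whether the 4 libraries of a group stem from different mice is not stated in the labels, and neither is whether a goblet and an other library share a mouse, so no libraries were paired and the p-values speak only of the spread among these libraries, which may be technical.

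Most members of the family share a zinc-finger domain that reads a short DNA hexamer and a pocket that holds the ligand. Many act only as a pair with a retinoid X receptor (RXR), and without ligand many recruit corepressors. In the intestine they are known as sensors of bile acids, oxysterols, fatty acids, xenobiotics, vitamin D, vitamin A derivatives and steroid hormones, and the REV-ERB and ROR receptors form an arm of the circadian clock.

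Library totals ran from 11915081 to 18530171 counts in DC goblet cells, 14886439 to 17693513 in DC other cells, 37439139 to 40533313 in Si8 goblet cells and 30839377 to 41075589 in Si8 other cells. Region, count table and depth cannot be told apart; the mitochondrially encoded genes are listed at 0 in the DC table and took 3.19% to 8.36% of the counts of Si8 libraries. The 8 listed goblet markers summed to 38560 to 43630 CPM (counts-per-million) in DC goblet cells, against 446 to 588 CPM in DC other cells, and to 125800 to 286900 CPM in Si8 goblet cells, against 311 to 790 CPM in Si8 other cells. The 6 colonocyte markers summed to 187 to 277 CPM in DC goblet cells, against 6506 to 7218 CPM in DC other cells. The 8 small intestinal enterocyte markers summed to 2301 to 3585 CPM in Si8 goblet cells, against 13300 to 24460 CPM in Si8 other cells. The 6 Paneth cell markers summed to 12400 to 32970 CPM in Si8 goblet cells, against 672 to 1804 CPM in Si8 other cells. The 8 enteroendocrine markers summed to 57.7 to 81.9 CPM in DC goblet cells, against 389 to 503 CPM in DC other cells, and to 111 to 197 CPM in Si8 goblet cells, against 322 to 459 CPM in Si8 other cells. The 9 intraepithelial lymphocyte markers summed to 2.04 to 3.04 CPM in DC goblet cells, with 4 of them at 0, against 7.07 to 8.09 CPM in DC other cells. They summed to 13.2 to 22.8 CPM in Si8 goblet cells, against 241 to 365 CPM in Si8 other cells. The 9 stromal and smooth muscle markers summed to 1.86 to 2.79 CPM in DC goblet cells, against 7.25 to 21.5 CPM in DC other cells, and to 2.70 to 4.05 CPM in Si8 goblet cells, against 19.8 to 22.3 CPM in Si8 other cells, with Vim alone averaging 2.98 CPM in Si8 goblet cells and 19.9 CPM in Si8 other cells. The 5 endothelial markers summed to 12.9 to 19.9 CPM in DC goblet cells, against 12.6 to 13.6 CPM in DC other cells. In Si8 they summed to 7.1 to 9.7 CPM in goblet cells, against 9.2 to 9.5 CPM in other cells. The 7 stem cell markers summed to 196 to 218 CPM in DC goblet cells, against 188 to 218 CPM in DC other cells. In Si8 they summed to 755 to 1260 CPM in goblet cells, against 717 to 806 CPM in other cells. The part of these cell types in the results below was not tested. In bulk samples, fewer cells of a type and less RNA per cell cannot be told apart.

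The listed members took a smaller share of the counts in goblet libraries than in other libraries in both regions. Such a share depends on how much of a library other genes fill and is not an amount of RNA per cell. The 35 members together took 0.139% ± 0.0072 of all counts in DC goblet libraries, against 0.216% ± 0.0127 in DC other libraries, and 0.119% ± 0.0115 in Si8 goblet libraries, against 0.210% ± 0.0076 in Si8 other libraries (SD, n = 4 each). The ranges of the goblet and other libraries did not overlap in either region. 31 of the 35 members passed the filter on low counts. By edgeR's quasi-likelihood test at a Benjamini-Hochberg adjusted p under 0.05, 21 of these 31 passed in DC goblet cells against DC other cells, which is 67.7%, beside 55.7% of all 16001 tested genes. Of these, 2 were higher, a direction called for 27.8% of all tested genes, and 19 were lower, called for 27.9%. In Si8, 19 of 31 passed, which is 61.3% beside 64.9% of all tested genes. There, 2 were higher, beside 33.1% of all genes, and 17 were lower, beside 31.8%. The share called was near the background in Si8 and above it in DC. The members' calls were mostly lower, where the calls over all genes were split about evenly, a description for which no test was made. The median log2 fold change of the tested members was -0.546 in DC and -0.479 in Si8, beside 0.028 and 0.029 over all tested genes. Of the 31 tested members, 20 in DC and 17 in Si8 had no overlap between the 4 goblet libraries and the 4 other libraries, beside 53.8% and 53.9% of all tested genes. With a log2 fold change of at least 1 in either direction also required, 8 members passed in DC, beside 22.6% of all tested genes, and 8 in Si8, beside 23.4%.

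14 members were lower in goblet cells in both regions: Nr1h3, Nr1i2, Nr1i3, Ppara, Ppard, Rara, Rxra, Thra, Vdr, Nr3c1, Nr2c2, Nr5a2, Nr6a1 and Esrra. The share of all tested genes lower in both regions was not counted, so this list has no background beside it. Pparg and Esrrg were lower in DC goblet cells and higher in Si8 goblet cells. Nr4a2 and Rorb were higher in DC goblet cells and did not pass in Si8. Nr1d1, Nr3c2 and Thrb passed as lower in DC and did not pass in Si8, and Nr1h2, Nr2c1 and Nr2f2 passed as lower in Si8 and did not pass in DC. 7 members passed in neither region: Nr1d2, Nr2f6, Nr4a3, Rarg, Rora, Rxrb and Esr1.

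**Figure D1:**
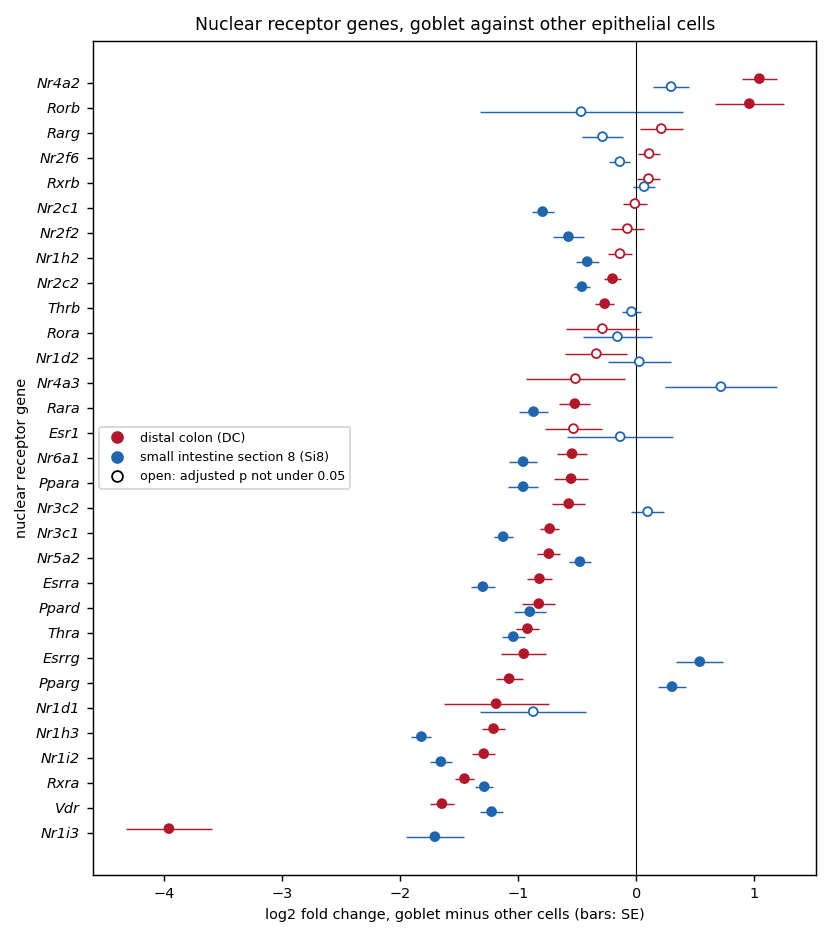
Log2 fold change of goblet over other epithelial cells for the 31 tested members, in DC (red) and Si8 (blue), with standard errors; filled points passed an adjusted p under 0.05. Most filled points lie left of 0, Nr4a2 and Rorb lie right of it in DC, and Pparg and Esrrg lie on opposite sides in the 2 regions.

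Of the 7 xenobiotic and lipid sensors, 6 passed as lower in DC, beside 27.9% of all tested genes, and 0 as higher, beside 27.8%. In Si8, 6 of 7 passed as lower, beside 31.8% of all tested genes, and 1 as higher, beside 33.1%. Nr1i2 (PXR; chr16:38248323-38294824, minus strand in build mm10, as for the genes below) is the pregnane X receptor, which senses drugs and bile acids and drives detoxifying enzymes. Nr1i2 had 36.5, 40.3, 40.9 and 43.5 CPM in the 4 DC goblet libraries, against 90.2, 100.2, 101 and 103 CPM in the 4 DC other libraries. Si8 levels were 41.9, 44.0, 44.3 and 52.0 CPM in goblet libraries, against 125, 129.7, 158 and 162 CPM in other libraries. The 4 goblet libraries lay below the 4 other libraries in both regions. The fold changes on the log2 scale were -1.29 ± 0.10 (SE; adjusted p = 6.56e-10) in DC and -1.66 ± 0.09 (SE; adjusted p = 1.45e-11) in Si8. Nr1i3 (CAR; chr1:171213970-171220701, plus strand), the constitutive androstane receptor that shares many target genes with PXR, was the member with the lowest fold change in DC. Nr1i3 had 0.157, 0.164, 0.221 and 0.324 CPM in the 4 DC goblet libraries, against 2.84, 3.09, 3.73 and 4.34 CPM in the 4 DC other libraries. For Si8, the values were 0.586, 1.07, 1.09 and 1.54 CPM in goblet libraries, against 2.23, 3.69, 3.77 and 4.35 CPM in other libraries. Every goblet library lay below every mCherry-negative library of its region. The log2 fold change was -3.96 ± 0.36 (SE; adjusted p = 1.69e-08) in DC and -1.71 ± 0.25 (SE; adjusted p = 6.38e-06) in Si8. These are few reads, 16 counts over the 4 DC goblet libraries, and 74.85% of the exonic bases of Nr1i3 overlap Tomm40l on the opposite strand. The strand setting of the counting is not given in the sources used here, so reads of the overlapping genes may not be separated.

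Nr1h3 (LXR alpha; chr2:91184061-91202834, minus strand), an oxysterol receptor that drives cholesterol export genes, was lower in goblet cells of both regions. Nr1h3 had 4.56, 4.71, 5.42 and 5.55 CPM in the 4 DC goblet libraries, against 10.6, 11.6, 12.2 and 12.7 CPM in the 4 DC other libraries. Goblet libraries of Si8 had 14.1, 14.4, 14.9 and 16.1 CPM, against 49.0, 51.4, 53.9 and 56.3 CPM in other libraries of Si8. The groups did not overlap in either region, and the log2 fold change was -1.21 ± 0.10 (SE; adjusted p = 2.73e-09) in DC and -1.82 ± 0.08 (SE; adjusted p = 8.12e-13) in Si8. Its paralog Nr1h2 (LXR beta), the more broadly expressed oxysterol receptor, stayed closer between the sorts. It averaged 47.4 ± 2.06 CPM in DC goblet cells and 52.2 ± 3.51 CPM in DC other cells, where it did not pass (adjusted p = 0.254). It averaged 64.3 ± 5.02 CPM in Si8 goblet cells and 85.9 ± 14.99 CPM in Si8 other cells (SD, n = 4 each), a log2 fold change of -0.42 ± 0.10 (SE; adjusted p = 0.00109).

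The PPARs are fatty acid receptors that govern fat oxidation, storage and differentiation. Ppara had 6.07, 6.96, 7.36 and 8.09 CPM in the 4 DC goblet libraries, against 8.20, 10.6, 11.3 and 11.6 CPM in the 4 DC other libraries. In Si8, levels were 14.1, 14.3, 15.8 and 19.3 CPM in goblet libraries, against 26.1, 28.8, 32.7 and 36.1 CPM in other libraries. Ppara, the receptor that drives fatty acid oxidation genes, had a log2 fold change of -0.55 ± 0.15 (SE; adjusted p = 0.00304) in DC and -0.96 ± 0.13 (SE; adjusted p = 2.07e-06) in Si8. Ppard had 44.0, 50.6, 51.6 and 56.7 CPM in the 4 DC goblet libraries, against 75.8, 90.0, 96.1 and 98.4 CPM in the 4 DC other libraries. The Si8 goblet libraries had 82.4, 102, 107 and 132 CPM, against 163, 175, 218 and 236 CPM in the Si8 other libraries. Ppard, which is widely expressed in epithelium, had -0.83 ± 0.14 (SE; adjusted p = 5.24e-05) in DC and -0.90 ± 0.14 (SE; adjusted p = 1.26e-05) in Si8. The goblet and other libraries of both genes did not overlap in either region. Pparg (chr6:115360951-115490399, plus strand), known in colonocytes as a mediator of differentiation and of the response to butyrate, did not follow its paralogs. Pparg had 33.5, 37.5, 38.1 and 40.6 CPM in the 4 DC goblet libraries, against 62.6, 80.3, 83.7 and 89.4 CPM in the 4 DC other libraries. The DC groups did not overlap, with a log2 fold change of -1.08 ± 0.11 (SE; adjusted p = 1.13e-07). Si8 levels were 10.5, 11.5, 12.6 and 13.9 CPM in goblet libraries, against 8.52, 9.33, 10.1 and 11.4 CPM in other libraries. The Si8 groups overlapped, with a log2 fold change of 0.30 ± 0.12 (SE; adjusted p = 0.0323). The Si8 call was lost in 8 of 23 alternatives, with an adjusted p of up to 0.12, among them DESeq2, its size factors within edgeR, the fit on 8 libraries and leaving out Si8 goblet library S2 or S6 or Si8 other library S3 or S7.

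The common partner receptors did not move together. Rxra (RXR alpha; chr2:27676440-27762957, plus strand), the partner with which PXR, CAR, LXR, the PPARs, VDR and the thyroid and retinoic acid receptors pair, was lower in goblet cells. Rxra had 36.6, 39.8, 42.1 and 42.5 CPM in the 4 DC goblet libraries, against 106, 109.9, 111 and 115 CPM in the 4 DC other libraries. For Si8, the values were 83.2, 86.8, 98.4 and 99.3 CPM in goblet libraries, against 212, 213, 234 and 239 CPM in other libraries. The groups did not overlap, and the log2 fold change was -1.46 ± 0.08 (SE; adjusted p = 5.83e-12) in DC and -1.29 ± 0.08 (SE; adjusted p = 2.28e-11) in Si8. Rxrb, a second partner, did not pass in either region and averaged 35.9 ± 4.03 CPM in DC goblet cells and 33.5 ± 2.53 CPM in DC other cells, and 35.9 ± 2.08 CPM in Si8 goblet cells and 34.3 ± 4.16 CPM in Si8 other cells (SD, n = 4 each). Its log2 fold changes were 0.10 ± 0.10 (SE; adjusted p = 0.398) in DC and 0.06 ± 0.10 (SE; adjusted p = 0.57) in Si8. Rxrg, the third partner, had at most 1 count in any library. Per exonic length, Rxra stood at 7.37 ± 0.492 RPKM (reads-per-kilobase-per-million) in DC goblet cells, below Rxrb at 9.05 ± 1.01 RPKM, while in DC other cells Rxra stood at 20.2 ± 0.652 RPKM, above Rxrb at 8.44 ± 0.637 RPKM (SD, n = 4 each). In Si8 Rxra stood above Rxrb in both sorts, at 16.8 ± 1.49 against 9.03 ± 0.524 RPKM in goblet cells and 41.1 ± 2.54 against 8.63 ± 1.05 RPKM in other cells.

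The retinoic acid receptors bind a vitamin A derivative. Rara had 13.8, 15.02, 15.1 and 18.2 CPM in the 4 DC goblet libraries, against 19.0, 20.7, 24.4 and 25.2 CPM in the 4 DC other libraries. Goblet libraries of Si8 had 24.6, 24.6, 27.1 and 28.3 CPM, against 38.0, 42.3, 53.2 and 58.0 CPM in other libraries of Si8. Rara was lower in goblet cells, with a log2 fold change of -0.52 ± 0.13 (SE; adjusted p = 0.00234) in DC and -0.87 ± 0.12 (SE; adjusted p = 5.11e-06) in Si8, and no overlap of the groups. Rarg did not pass and averaged 6.39 ± 0.872 CPM in DC goblet cells and 5.50 ± 1.30 CPM in DC other cells, and 3.68 ± 0.718 CPM in Si8 goblet cells and 4.47 ± 0.639 CPM in Si8 other cells. Rarb had at most 6 counts in any library, while Top2b, which overlaps 34.06% of its exonic bases on the opposite strand, averaged 3015 to 6545 counts in the 4 groups.

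The hexamer that many of these receptors bind, AGGTCA or its reverse complement TGACCT, was looked for on both strands in the 250 bases before each RefSeq start site (build GRCm38.p6). Counting a match before any start site of a gene, it stood in 8 of the 33 members with a promoter entry and in 15.8% of 27025 genes. Genes with several listed start sites had more chances of a match. The 8 were Nr1d2, Nr5a2, Nr6a1, Rarg, Rxra, Rxrg, Pparg and Thrb. The windows of 80 bases shown here lie from 110 to 31 bases before a start site and are outside annotated exons. They are shown because 3 of these genes, Rxra, Nr5a2 and Nr6a1, were lower in goblet cells of both regions, and Nr1d2 is the clock receptor described below. For Rxra, Nr5a2 and Nr6a1, another listed start site had no match. The Rxra and Nr6a1 windows lie before start sites inside the annotated gene. Which start sites these cells use was not tested. Capitals mark the hexamer or its reverse complement, each read 5′ to 3′ on the gene's strand.
Rxra, chr2:27709182-27709261, plus strand: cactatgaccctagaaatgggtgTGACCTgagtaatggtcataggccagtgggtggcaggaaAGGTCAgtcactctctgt
Nr5a2, chr1:136960479-136960558, minus strand: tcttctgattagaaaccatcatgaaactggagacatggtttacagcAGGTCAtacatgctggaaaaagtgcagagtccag
Nr6a1, chr2:38784546-38784625, minus strand: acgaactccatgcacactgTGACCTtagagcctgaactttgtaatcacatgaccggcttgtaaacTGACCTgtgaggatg
Nr1d2, chr14:18239137-18239216, minus strand: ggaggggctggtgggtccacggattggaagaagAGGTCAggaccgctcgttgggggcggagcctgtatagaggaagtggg
The Rxra window holds the hexamer on both strands, and the Nr6a1 window holds its reverse complement at both marked places. The E-box CACGTG, through which clock activators bind, stood in the promoters of 3 members (Nr1i3, Rara and Thrb) and of 6.86% of genes. The D-box TTATGNAA stood in 1 member, Esrrg, and 3.63% of genes. The NR4A site AAAGGTCA, which contains the hexamer, stood in 2 members, Rxra and Rxrg, and 1.55% of genes. The cAMP response element TGACGTCA stood in 0 members and 1.77% of genes, and direct repeats of the hexamer with 1 or 4 bases between the copies, which contain it by construction, stood in 0 members and in 0.0407% and 0.0148% of genes. A match describes letters in these windows and is not a measured binding site.

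The vitamin D receptor and the thyroid hormone receptor Thra were lower in goblet cells of both regions. Vdr (chr15:97854425-97910630, minus strand), the receptor of the active form of vitamin D, which drives intestinal calcium uptake genes, was among the 3 highest members per length in all 4 groups. Vdr had 82.8, 108, 109 and 114 CPM in the 4 DC goblet libraries, against 282, 331, 342 and 343 CPM in the 4 DC other libraries. In Si8, levels were 134, 148, 154 and 170.3 CPM in goblet libraries, against 339, 339.8, 358 and 380.1 CPM in other libraries. The goblet libraries lay below the mCherry-negative libraries in both regions, and the log2 fold change was -1.65 ± 0.10 (SE; adjusted p = 5.05e-11) in DC and -1.23 ± 0.10 (SE; adjusted p = 2.81e-09) in Si8. Thra (chr11:98740638-98769006, plus strand) encodes a thyroid hormone receptor known in crypt cells. Thra had 23.4, 23.6, 25.6 and 25.8 CPM in the 4 DC goblet libraries, against 42.5, 45.2, 46.6 and 52.3 CPM in the 4 DC other libraries. The Si8 goblet libraries had 29.7, 29.7, 33.1 and 39.0 CPM, against 59.4, 66.1, 69.6 and 76.0 CPM in the Si8 other libraries. The groups did not overlap, and the log2 fold change was -0.92 ± 0.10 (SE; adjusted p = 1.65e-07) in DC and -1.04 ± 0.10 (SE; adjusted p = 1.53e-08) in Si8. Thrb, the other thyroid hormone receptor, changed less in DC, with a log2 fold change of -0.27 ± 0.08 (SE; adjusted p = 0.00695), and did not pass in Si8, with -0.04 ± 0.08 (SE; adjusted p = 0.653). The difference of the Thrb effect between the regions did not pass either (adjusted p = 0.129).

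The steroid receptors split between the regions. Nr3c1, the glucocorticoid receptor, was lower in goblet cells of both. Nr3c1 had 70.9, 80.8, 85.5 and 87.0 CPM in the 4 DC goblet libraries, against 132, 132, 137 and 139.5 CPM in the 4 DC other libraries. Si8 levels were 112, 119, 120.2 and 139.7 CPM in goblet libraries, against 258, 259.8, 267 and 288 CPM in other libraries. The groups did not overlap, and the log2 fold change was -0.74 ± 0.08 (SE; adjusted p = 2.07e-07) in DC and -1.13 ± 0.08 (SE; adjusted p = 3.72e-10) in Si8. Nr3c2 (chr8:76899442-77245012, plus strand) is the mineralocorticoid receptor, through which aldosterone drives sodium uptake in the distal colon. Nr3c2 had 223, 236, 240.0 and 267 CPM in the 4 DC goblet libraries, against 298, 339.6, 399 and 401 CPM in the 4 DC other libraries. For Si8, the values were 125, 139.7, 174 and 196 CPM in goblet libraries, against 124, 132, 159.9 and 178 CPM in other libraries. It was lower in DC goblet cells without overlap, at -0.57 ± 0.14 (SE; adjusted p = 0.00171), and the Si8 groups overlapped, at 0.10 ± 0.14 (SE; adjusted p = 0.562). Esr1 (chr10:4611593-5005614, plus strand) is an oestrogen receptor. Esr1 had 2.56, 3.01, 3.89 and 4.34 CPM in the 4 DC goblet libraries, against 3.98, 4.41, 4.92 and 6.58 CPM in the 4 DC other libraries. Goblet libraries of Si8 had 0.0534, 0.192, 0.251 and 0.256 CPM, against 0.130, 0.139, 0.201 and 0.356 CPM in other libraries of Si8. The sorts overlapped in both regions and did not pass (adjusted p = 0.0676 in DC and 0.803 in Si8), while every DC library stood above every Si8 library. Esr1 passed in DC in 4 of 23 alternatives: the fit on 8 libraries, and without DC goblet library S18, DC other library S14 or Si8 goblet library S2. Pgr, the progesterone receptor, had at most 18 counts in any library and was not tested.

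Among the orphan receptors, Nr4a2 (chr2:57106830-57124003, minus strand), an early-response receptor that acts without a known ligand, was higher in goblet cells of the DC. Nr4a2 had 18.8, 23.1, 27.0 and 28.4 CPM in the 4 DC goblet libraries, against 9.92, 11.7, 12.03 and 13.5 CPM in the 4 DC other libraries. In Si8, levels were 7.63, 7.91, 8.68 and 11.5 CPM in goblet libraries, against 6.12, 7.10, 7.44 and 8.45 CPM in other libraries. The DC groups did not overlap and had a log2 fold change of 1.04 ± 0.15 (SE; adjusted p = 7.48e-06), while the Si8 groups overlapped, at 0.29 ± 0.15 (SE; adjusted p = 0.0935), and passed in 2 of 23 alternatives, with no filter on low counts and without Si8 other library S3. Its relative Nr4a3 varied widely within each group. Nr4a3 had 3.35, 9.30, 10.4 and 12.2 CPM in the 4 DC goblet libraries, against 4.87, 12.1, 14.96 and 18.3 CPM in the 4 DC other libraries. The Si8 goblet libraries had 1.55, 2.34, 2.56 and 4.25 CPM, against 0.907, 1.39, 1.69 and 2.44 CPM in the Si8 other libraries. The groups overlapped in both regions and Nr4a3 did not pass. The log2 fold change was -0.52 ± 0.42 (SE; adjusted p = 0.313) in DC and 0.72 ± 0.48 (SE; adjusted p = 0.201) in Si8.

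Esrra (chr19:6910977-6921813, minus strand), an oestrogen-related receptor that supports mitochondrial genes with the coactivator Ppargc1a, was lower in goblet cells. Esrra had 61.2, 61.5, 67.9 and 70.6 CPM in the 4 DC goblet libraries, against 110.2, 116, 117 and 118 CPM in the 4 DC other libraries. Si8 levels were 92.6, 112, 117 and 121 CPM in goblet libraries, against 224, 255, 288 and 326 CPM in other libraries. The groups did not overlap, and the log2 fold change was -0.82 ± 0.10 (SE; adjusted p = 1.56e-06) in DC and -1.30 ± 0.10 (SE; adjusted p = 2.01e-09) in Si8. Its relative Esrrg (chr1:187608791-188214885, plus strand) went in opposite directions. Esrrg had 6.02, 7.28, 7.96 and 10.2 CPM in the 4 DC goblet libraries, against 12.9, 14.7, 16.3 and 16.5 CPM in the 4 DC other libraries. The DC groups did not overlap, at -0.95 ± 0.19 (SE; adjusted p = 0.000264). For Si8, the values were 2.65, 4.30, 4.69 and 5.30 CPM in goblet libraries, against 2.08, 2.95, 3.29 and 3.38 CPM in other libraries. The Si8 groups overlapped, at 0.54 ± 0.20 (SE; adjusted p = 0.024), and that call was lost in 4 of 23 alternatives, with an adjusted p of up to 0.0932, when Si8 goblet library S4 or S8 or Si8 other library S5 was left out and in the fit on 8 libraries.

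Nr5a2 (LRH-1), which is known to drive glucocorticoid synthesis and renewal in intestinal crypts, was lower at -0.74 ± 0.10 (SE; adjusted p = 2.19e-06) in DC and -0.48 ± 0.10 (SE; adjusted p = 0.000232) in Si8. Nr6a1 had 10.9, 13.2, 13.4 and 13.7 CPM in the 4 DC goblet libraries, against 15.4, 18.2, 20.1 and 21.0 CPM in the 4 DC other libraries. Goblet libraries of Si8 had 16.9, 18.3, 21.3 and 22.0 CPM, against 32.1, 34.6, 41.7 and 44.4 CPM in other libraries of Si8. Nr6a1, the germ cell nuclear factor, was lower without overlap, at -0.55 ± 0.13 (SE; adjusted p = 0.0014) in DC and -0.96 ± 0.12 (SE; adjusted p = 1.09e-06) in Si8. Nr2c2, an orphan receptor that binds repeats of the hexamer, was lower by less, at -0.20 ± 0.07 (SE; adjusted p = 0.0178) in DC and -0.46 ± 0.07 (SE; adjusted p = 8.35e-06) in Si8, and the DC call was lost without DC goblet library S13 and with no filter on low counts. Its relative Nr2c1 was level in DC, with 9.78 ± 1.07 CPM in goblet cells and 9.88 ± 0.315 CPM in other cells, and lower in Si8 goblet cells, with 9.22 ± 0.498 CPM against 16.01 ± 1.45 CPM in other cells (SD, n = 4 each) and a log2 fold change of -0.80 ± 0.09 (SE; adjusted p = 4.64e-07). Nr2f2, a receptor known mostly from mesenchyme and vessels, passed as lower in Si8, at -0.58 ± 0.13 (SE; adjusted p = 0.000653), and not in DC, at -0.08 ± 0.14 (SE; adjusted p = 0.659). Nr2f6, a repressor of the same subfamily, did not pass, with 66.7 ± 4.67 CPM in DC goblet cells and 62.0 ± 1.04 CPM in DC other cells, and 62.6 ± 3.61 CPM in Si8 goblet cells and 69.1 ± 10.1 CPM in Si8 other cells. 54.37% of the exonic bases of Nr2f6 overlap Ocel1, and 30.73% of those of Nr2c2 overlap Mrps25, on the opposite strand. Nr2f1 had at most 5 counts in any library and was not tested.

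**Figure D2:**
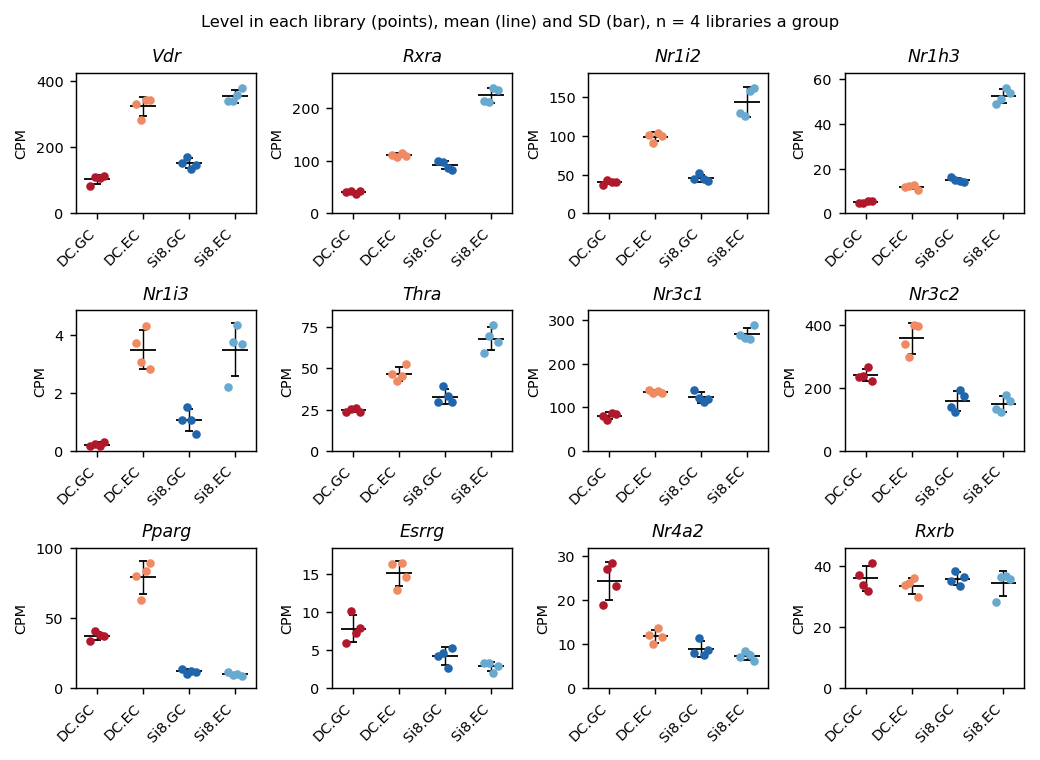
CPM of 12 members in each library (points) with the mean (line) and SD (bar) of 4 libraries a group, in DC and then Si8, goblet (GC) left of other cells (EC); every axis starts at 0. Goblet points lie below the other points in both regions for Vdr, Rxra, Nr1i2, Nr1h3, Nr1i3, Thra and Nr3c1, Nr4a2 is highest in DC goblet cells, and Rxrb is level.

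The clock receptors Nr1d1 and Nr1d2 varied more between libraries of a group than most genes. Nr1d1 and Nr1d2 (REV-ERB alpha and beta) repress clock activators such as Arntl, and Rora and Rorb compete for the same sites. Nr1d1 had 17.5, 23.1, 41.1 and 48.3 CPM in the 4 DC goblet libraries, against 50.8, 58.5, 79.7 and 108 CPM in the 4 DC other libraries. In Si8, levels were 5.67, 11.1, 15.8 and 19.4 CPM in goblet libraries, against 11.4, 18.1, 28.3 and 37.4 CPM in other libraries. The DC groups did not overlap and had a log2 fold change of -1.19 ± 0.44 (SE; adjusted p = 0.0352), and the Si8 groups overlapped, at -0.87 ± 0.45 (SE; adjusted p = 0.103), and passed in 1 of 23 alternatives, without Si8 other library S1. The exons of Nr1d1 overlap those of Thra on the opposite strand over 263 bases, which is 8.55% of Nr1d1 and 5.7% of Thra. The DC call of Nr1d1 was lost in 5 of 23 alternatives, with an adjusted p of up to 0.107: without DC goblet library S9 or S13, without DC other library S12 or S17, and with no filter on low counts. The SD of log2 CPM of Nr1d1 within a group was 0.676 in DC goblet, 0.479 in DC other, 0.741 in Si8 goblet and 0.73 in Si8 other libraries, against medians over all tested genes of 0.13, 0.149, 0.154 and 0.172 in the same groups. Nr1d2 had 32.1, 39.1, 60.5 and 66.5 CPM in the 4 DC goblet libraries, against 50.1, 50.2, 63.4 and 87.2 CPM in the 4 DC other libraries. The Si8 goblet libraries had 10.6, 15.7, 16.7 and 17.9 CPM, against 9.29, 15.6, 15.9 and 19.0 CPM in the Si8 other libraries. Nr1d2 overlapped between the sorts in both regions and did not pass, with -0.34 ± 0.26 (SE; adjusted p = 0.288) in DC and 0.02 ± 0.27 (SE; adjusted p = 0.946) in Si8. Rora did not pass in either region and stayed at or below 3.16 CPM in every library. Rorb had few reads. Rorb had 1.15, 1.54, 1.76 and 2.08 CPM in the 4 DC goblet libraries, against 0.544, 0.713, 0.946 and 1.17 CPM in the 4 DC other libraries. Si8 levels were 0, 0.0256, 0.0267 and 0.0319 CPM in goblet libraries, against 0, 0.0251, 0.0325 and 0.0696 CPM in other libraries. It was higher in DC goblet cells with overlapping groups, at 0.96 ± 0.29 (SE; adjusted p = 0.00857), and did not pass in Si8, where the libraries held 3 counts in goblet cells and 4 in other cells.

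Within a group, the library with the most Nr1d1 was in 4 of 4 groups also that with the most Nr1d2 and the most Ciart, a clock repressor, and in 3 of 4 groups that with the most Per3, a period gene. The same library was lowest in its group for the clock activators Arntl and Npas2 and for the repressor Cry1 in 3 of 4 groups. The other clock genes compared shared less of this order. The highest library was the same in 2 of 4 groups for Dbp and Tef, and in 1 for Per1, Nfil3 and Csnk1e. It was the same in 0 groups for Clock, Per2, Cry2, Bhlhe40 and Csnk1d. The library with the most Nr1d1 was the lowest in 1 of 4 groups for Dbp, Clock, Per1, Per2, Cry2 and Csnk1d. These counts were not tested against chance. Ciart rested on few reads, with means of 0.583 CPM in DC goblet cells, 0.722 CPM in DC other cells, 0.424 CPM in Si8 goblet cells and 0.329 CPM in Si8 other cells. In DC other cells, for example, library S12 had 107.6 CPM of Nr1d1 and 102 CPM of Arntl, against 50.8 to 79.7 CPM of Nr1d1 and 125 to 130.3 CPM of Arntl in the other 3 libraries.

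**Figure D3:**
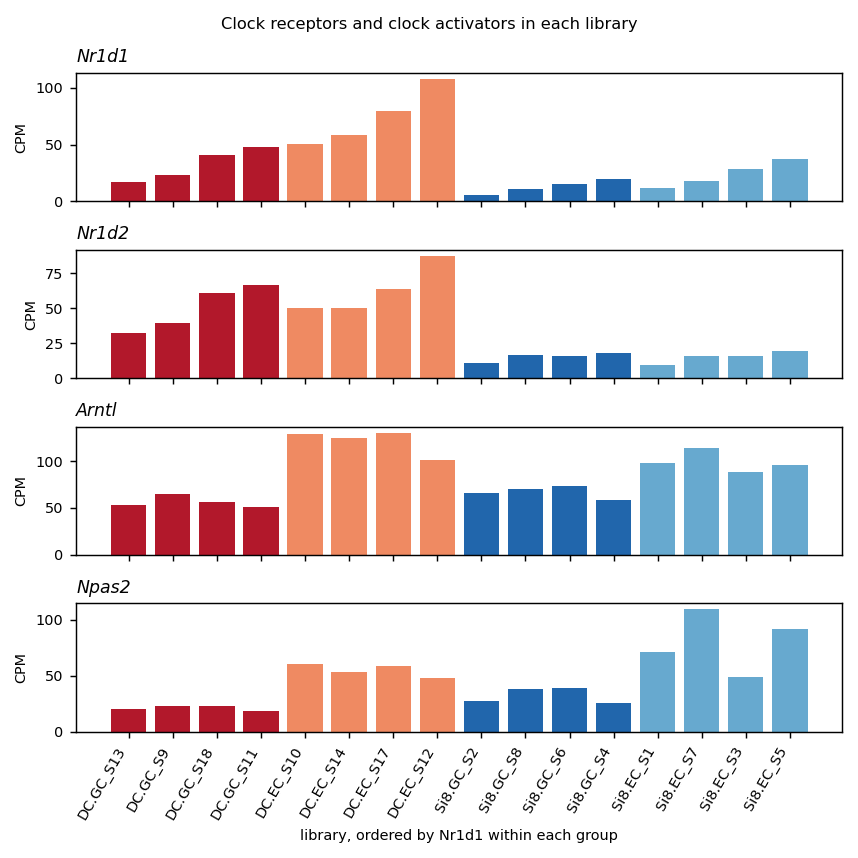
CPM of the clock receptors Nr1d1 and Nr1d2 and of the clock activators Arntl and Npas2 in each of the 16 libraries, ordered within each group by Nr1d1, in DC and then Si8, goblet (GC) left of other cells (EC). Within each group Nr1d1 spans a larger ratio than the activators do, and the library with the most Nr1d1 also has the most Nr1d2.

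Between the regions, members moved in both directions. In DC goblet cells against Si8 goblet cells 23 of 31 tested members passed, 74.2% beside 62.1% of all tested genes, with 11 higher (30.6% of all genes) and 12 lower (31.5%). In DC other cells against Si8 other cells 24 of 31 passed, 77.4% beside 66.9%, with 10 higher (33.3%) and 14 lower (33.6%). Of the 31 tested members, 21 in goblet cells and 23 in other cells had no overlap between the regions' libraries, beside 57.2% and 59.6% of all tested genes. At a log2 fold change of at least 1 in size, 12 passed in goblet cells, beside 25.8% of all tested genes, and 15 in other cells, beside 32%. By role, 3 of 4 clock receptors passed as higher in the DC in both sorts and none as lower. Among these 3, Rorb held 3 counts in Si8 goblet and 4 in Si8 other libraries. In both sorts, 5 of 7 lipid and xenobiotic sensors passed as lower and only Pparg as higher. The shares of all genes higher and lower given above are the background for these few members.

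The members higher in the DC were led by genes nearly absent from Si8. Rorb gave 119 counts over the DC goblet libraries, against 3 over the Si8 goblet libraries, a ratio of 78.5 with a 95% counting interval of 26.2 to 386. That interval rests on the summed counts and leaves out the spread between libraries, unlike the tests below. Esr1 was 4.16 ± 0.33 (SE; adjusted p = 1.49e-09) on the log2 scale in goblet cells and 4.55 ± 0.32 (SE; adjusted p = 1.83e-10) in other cells. Pparg was higher by 1.62 ± 0.12 (SE; adjusted p = 4.57e-10) in goblet cells and by 3.004 ± 0.12 (SE; adjusted p = 4.06e-14) in other cells, without overlap in either. Esrrg was higher by 0.87 ± 0.19 (SE; adjusted p = 0.000672) in goblet cells and by 2.37 ± 0.20 (SE; adjusted p = 2.54e-09) in other cells. Nr3c2 was higher by 0.61 ± 0.14 (SE; adjusted p = 0.000969) in goblet cells and by 1.27 ± 0.14 (SE; adjusted p = 1.85e-07) in other cells. Nr4a2 was higher by 1.44 ± 0.15 (SE; adjusted p = 7.6e-08) in goblet cells and by 0.69 ± 0.15 (SE; adjusted p = 0.000564) in other cells, and Nr4a3 by 1.70 ± 0.44 (SE; adjusted p = 0.00352), with overlapping groups, and 2.94 ± 0.46 (SE; adjusted p = 4.19e-05). Nr1d2 was higher by 1.70 ± 0.27 (SE; adjusted p = 5.77e-05) in goblet cells and by 2.06 ± 0.27 (SE; adjusted p = 6.37e-06) in other cells. Nr1d1 was higher by 1.32 ± 0.46 (SE; adjusted p = 0.0218) in goblet cells, where the groups overlapped and the call was lost without DC goblet library S11 or S18 and with no filter on low counts, and by 1.64 ± 0.45 (SE; adjusted p = 0.00508) in other cells. Thrb was higher in both sorts, by 0.40 ± 0.08 (SE; adjusted p = 0.000222) and 0.62 ± 0.08 (SE; adjusted p = 8.24e-07), and Rarg in goblet cells, by 0.80 ± 0.18 (SE; adjusted p = 0.000714).

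Of the members lower in the DC, Nr1i3 had the lowest value in goblet cells and Nr1h3 in other cells. Nr1h3 was at -1.55 ± 0.09 (SE; adjusted p = 3.49e-11) in goblet cells and -2.16 ± 0.09 (SE; adjusted p = 4.63e-14) in other cells. Ppara was at -1.16 ± 0.14 (SE; adjusted p = 5.87e-07) and -1.57 ± 0.13 (SE; adjusted p = 3.72e-09), and Ppard at -1.06 ± 0.14 (SE; adjusted p = 2.47e-06) and -1.137 ± 0.14 (SE; adjusted p = 6.63e-07), in the same order of sorts. Rxra was at -1.19 ± 0.08 (SE; adjusted p = 8.35e-11) in goblet cells and -1.02 ± 0.08 (SE; adjusted p = 3.79e-10) in other cells. Nr1i3 was lower in DC goblet cells, at -2.26 ± 0.40 (SE; adjusted p = 6.43e-05), and did not pass in other cells, at -0.01 ± 0.24 (SE; adjusted p = 0.975). Nr1i2 was lower in DC other cells, at -0.54 ± 0.09 (SE; adjusted p = 3.47e-05), and did not pass in goblet cells (adjusted p = 0.107). Esrra, Rara, Nr6a1, Nr3c1, Thra and Nr1h2 were lower in the DC in both sorts, with log2 fold changes between -0.76 and -0.42 in goblet cells and between -1.24 and -0.54 in other cells. Vdr was lower in DC goblet cells, at -0.55 ± 0.10 (SE; adjusted p = 9.8e-05), and did not pass in other cells, at -0.13 ± 0.10 (SE; adjusted p = 0.267). Nr2c1, Nr2c2 and Nr2f2 were lower in DC other cells and did not pass in goblet cells, and the Nr2f2 groups overlapped and its call was lost in 15 of 23 alternatives.

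**Figure D4:**
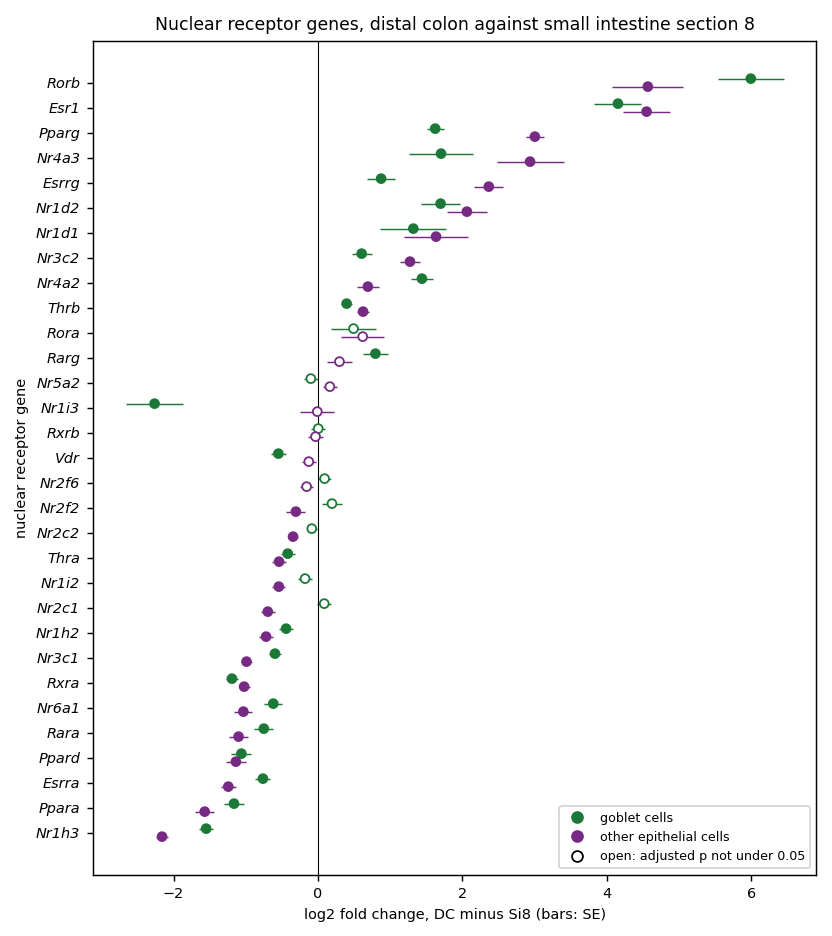
Log2 fold change of DC over Si8 for the 31 tested members in goblet cells (green) and in other epithelial cells (purple), with standard errors; filled points passed an adjusted p under 0.05. Rorb and Esr1 lie farthest right, and Nr1h3 farthest left in other cells. The Rorb values rest on few counts in Si8.

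Set against each other, the goblet effects of DC and Si8 differed for 13 of 31 members, 41.9% beside 32.1% of all tested genes. 8 effects were more positive in the DC, beside 15.6% of all genes, and 5 were more negative, beside 16.5%. 3 were past 1 on the log2 scale, beside 15.1% of all genes. Nr1i3, at -2.25 ± 0.47 (SE; adjusted p = 0.000959), was lower in goblet cells of both regions and by more in the DC. Esrrg, at -1.49 ± 0.27 (SE; adjusted p = 0.000297), and Pparg, at -1.38 ± 0.16 (SE; adjusted p = 2.25e-06), had goblet effects of opposite sign. For both, the DC other libraries were the highest group, and the Si8 other libraries the lowest mean. Nr3c2, at -0.67 ± 0.20 (SE; adjusted p = 0.0132), passed as lower in goblet cells in DC and had a Si8 log2 fold change of 0.10. Vdr, at -0.42 ± 0.14 (SE; adjusted p = 0.027), was lower in both regions and by more in the DC, a difference that was lost without DC goblet library S13, DC other library S17 or Si8 goblet library S4. On the other side Nr4a2, at 0.75 ± 0.21 (SE; adjusted p = 0.0104), had a goblet effect that was more positive in the DC, where it passed, while the Si8 log2 fold change of 0.29 did not. Nr2c1, at 0.78 ± 0.14 (SE; adjusted p = 0.00019), Nr1h3, at 0.61 ± 0.13 (SE; adjusted p = 0.00102), Esrra, at 0.48 ± 0.15 (SE; adjusted p = 0.0163), and Nr3c1, at 0.39 ± 0.11 (SE; adjusted p = 0.0111), had goblet effects that were more negative in Si8. The differences of Nr2f2, Nr1i2 and Nr2c2 were between 0.26 and 0.50, and each was lost in 14 of 22 alternatives.

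Compared per exonic length, a few genes made up the upper end of the listed members in each group. Family genes outside the member list, such as Hnf4a and Nr4a1, were not ranked. In DC goblet cells Nr3c2 stood highest at 37.3 ± 2.85 RPKM, followed by Nr2f6 at 22.4 ± 1.57 and Vdr at 18.3 ± 2.49 RPKM. Each gap was larger than the SD of either neighbour. The place of Nr2f6 is uncertain, because 54.37% of its exonic bases overlap Ocel1 on the opposite strand. The strand setting of the counting is not given. In DC other cells Vdr at 57.4 ± 5.08 and Nr3c2 at 55.5 ± 7.66 RPKM did not differ beyond their SD, and both stood above Nr1i2 at 38.7 ± 2.28 RPKM. In Si8 goblet cells Vdr at 26.8 ± 2.68, Esrra at 25.3 ± 2.91 and Nr3c2 at 24.5 ± 4.97 RPKM did not differ beyond their SD. In Si8 other cells Vdr at 62.7 ± 3.42, Esrra at 62.3 ± 10.1 and Nr1i2 at 56.3 ± 7.41 RPKM came first, with gaps smaller than the SD, and Rxra followed at 41.1 ± 2.54 RPKM (SD, n = 4 each).

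The genes these receptors are known to control are given here by list, with means ± SD of 4 libraries a group. Of all tested genes, 27.9% passed as lower and 27.8% as higher in DC, and 31.8% and 33.1% in Si8. These shares are the background for all list counts of goblet against other cells below. With either direction counted, 55.7% of all tested genes passed in DC and 64.9% in Si8. No list was tested against these shares, and some lists lie near them. Of the PXR and CAR target list, 15 of 18 genes were tested, of which 12 passed as lower and 1 as higher in DC, and 13 as lower and 2 as higher in Si8. The carboxylesterase Ces2c was at 6.89 ± 1.35 CPM in goblet cells and 242 ± 12.8 CPM in other cells (log2 fold change -5.15 ± 0.15 SE, adjusted p = 1.34e-15) in DC and 16.2 ± 1.99 CPM in goblet cells and 99.6 ± 17.7 CPM in other cells (log2 fold change -2.62 ± 0.13 SE, adjusted p = 2.37e-12) in Si8. The cytochrome Cyp2c55 was at 26.6 ± 8.94 CPM in goblet cells and 853 ± 109 CPM in other cells (log2 fold change -5.01 ± 0.25 SE, adjusted p = 3.06e-11) in DC. Of the PPAR target list, 20 of 22 were tested, of which 15 passed as lower and 0 as higher in DC, and 15 as lower and 1 as higher in Si8. The carnitine carrier Slc25a20 was at 39.9 ± 2.35 CPM in goblet cells and 214 ± 27.9 CPM in other cells (log2 fold change -2.42 ± 0.11 SE, adjusted p = 4.67e-13) in DC. The lipid droplet gene Cidec was at 1.138 ± 0.318 CPM in goblet cells and 19.5 ± 7.83 CPM in other cells (log2 fold change -4.10 ± 0.27 SE, adjusted p = 3.89e-10) in Si8. Of the LXR target list, all 11 were tested, and 6 passed as lower and 2 as higher in DC, and 7 as lower and 1 as higher in Si8. Its members did not share a direction: in Si8 the cholesterol exporter Abca1 was at 6.37 ± 0.754 CPM in goblet cells and 34.2 ± 7.15 CPM in other cells (log2 fold change -2.43 ± 0.15 SE, adjusted p = 6.58e-11). Its relative Abcg1 was at 21.5 ± 6.65 CPM in goblet cells and 1.80 ± 0.316 CPM in other cells (log2 fold change 3.58 ± 0.31 SE, adjusted p = 3.49e-08). Of the bile acid receptor (FXR) target list, 5 of 6 were tested, of which 3 passed as lower in DC and 5 in Si8, and 0 as higher.

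The retinoid list had 13 of 19 genes tested, with 10 lower and 1 higher in DC and 8 lower and 3 higher in Si8. The exception in DC was Rbp4, the carrier of retinol in blood, with 29.1 ± 1.27 CPM in goblet cells and 1.58 ± 0.266 CPM in other cells (log2 fold change 4.20 ± 0.16 SE, adjusted p = 5.86e-14). The vitamin D list had 7 of 10 tested, with 4 lower and 3 higher in DC and 3 lower and 2 higher in Si8. Its calcium channel Trpv6 was at 4.54 ± 1.70 CPM in goblet cells and 139.5 ± 19.4 CPM in other cells (log2 fold change -4.97 ± 0.20 SE, adjusted p = 4.58e-13) in DC. The mineralocorticoid list had all 10 tested, with 4 lower and 3 higher in DC and 5 lower and 2 higher in Si8. It held the enzyme Hsd11b2, which shields the mineralocorticoid receptor from glucocorticoids, at 378 ± 64.8 CPM in goblet cells and 69.0 ± 6.84 CPM in other cells (log2 fold change 2.45 ± 0.14 SE, adjusted p = 1.62e-11) in DC and 41.2 ± 6.64 CPM in goblet cells and 8.69 ± 1.37 CPM in other cells (log2 fold change 2.24 ± 0.14 SE, adjusted p = 1.1e-10) in Si8. The sodium channel subunit Scnn1b was at 33.7 ± 5.94 CPM in goblet cells and 1.98 ± 0.340 CPM in other cells (log2 fold change 4.08 ± 0.20 SE, adjusted p = 1.19e-12) in DC. The kinase Sgk1 of the same list was lower, at 94.8 ± 15.3 CPM in goblet cells and 356 ± 29.6 CPM in other cells (log2 fold change -1.91 ± 0.20 SE, adjusted p = 3.44e-07) in DC and 31.7 ± 4.91 CPM in goblet cells and 195 ± 59.6 CPM in other cells (log2 fold change -2.62 ± 0.20 SE, adjusted p = 8.18e-09) in Si8. The glucocorticoid list had 11 of 14 tested, with 5 lower and 1 higher in DC and 4 lower and 4 higher in Si8. The oestrogen-related receptor list had 10 of 12 tested, with 4 lower in DC and 8 in Si8 and 0 higher in either. The thyroid hormone list had 6 of 9 tested, with 2 lower and 1 higher in each region.

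Of the other family genes listed for context, 7 of 13 were tested, with 4 lower and 0 higher in DC and 4 lower and 2 higher in Si8. Hnf4a, a constitutively active receptor that maintains enterocyte genes, was at 323 ± 14.9 CPM in goblet cells and 896 ± 82.9 CPM in other cells (log2 fold change -1.47 ± 0.09 SE, adjusted p = 4.29e-11) in DC. Its paralog Hnf4g was at 22.4 ± 2.79 CPM in goblet cells and 39.9 ± 0.630 CPM in other cells (log2 fold change -0.84 ± 0.09 SE, adjusted p = 2.42e-07) in DC and 84.6 ± 3.02 CPM in goblet cells and 261 ± 31.7 CPM in other cells (log2 fold change -1.62 ± 0.09 SE, adjusted p = 8.18e-12) in Si8. Nr1h4, the bile acid receptor FXR, was at 31.8 ± 8.14 CPM in goblet cells and 68.6 ± 8.98 CPM in other cells (log2 fold change -1.12 ± 0.14 SE, adjusted p = 1.43e-06) in DC and 97.7 ± 7.13 CPM in goblet cells and 291 ± 19.0 CPM in other cells (log2 fold change -1.57 ± 0.13 SE, adjusted p = 7.91e-09) in Si8. Nr4a1, the early-response relative of Nr4a2, was higher in Si8 goblet cells, at 61.6 ± 25.3 CPM in goblet cells and 16.7 ± 9.32 CPM in other cells (log2 fold change 1.87 ± 0.43 SE, adjusted p = 0.00165). The coregulator list had all 18 tested, with 11 lower and 1 higher in DC and 11 lower and 4 higher in Si8. The coactivator Ncoa3 was at 51.6 ± 3.91 CPM in goblet cells and 126 ± 10.1 CPM in other cells (log2 fold change -1.29 ± 0.10 SE, adjusted p = 1.24e-09) in DC, and the coactivator Ppargc1a at 9.34 ± 0.418 CPM in goblet cells and 31.3 ± 3.005 CPM in other cells (log2 fold change -1.74 ± 0.13 SE, adjusted p = 6.66e-10) in Si8. The steroid receptor chaperone list had all 10 tested, with 1 lower and 3 higher in DC and 1 lower and 5 higher in Si8. The lower gene was Fkbp5 in both, at 30.1 ± 9.09 CPM in goblet cells and 108 ± 7.43 CPM in other cells (log2 fold change -1.83 ± 0.15 SE, adjusted p = 9.12e-09) in DC and 30.6 ± 4.13 CPM in goblet cells and 46.6 ± 4.76 CPM in other cells (log2 fold change -0.61 ± 0.15 SE, adjusted p = 0.00163) in Si8. The clock list had 15 of 17 tested, with 8 lower and 1 higher in DC and 7 lower and 4 higher in Si8. Its repressor Cry1 was at 20.9 ± 6.37 CPM in goblet cells and 71.0 ± 8.16 CPM in other cells (log2 fold change -1.77 ± 0.21 SE, adjusted p = 1.73e-06) in DC and 28.1 ± 4.34 CPM in goblet cells and 61.7 ± 16.6 CPM in other cells (log2 fold change -1.13 ± 0.20 SE, adjusted p = 0.000111) in Si8.

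Between the regions, the same lists split in direction. Of all tested genes, 30.6% passed as higher in the DC and 31.5% as lower in goblet cells. In other cells the shares were 33.3% and 33.6%. They are the background for the list counts between the regions, and no list was tested against them. Of the FXR list, 5 of the tested genes passed as lower in the DC and 0 as higher, in goblet cells and in other cells alike. Its ileal bile acid binding protein Fabp6 was at 1.54 ± 0.678 CPM in DC other cells and 5070.0 ± 1098 CPM in Si8 other cells (log2 fold change -11.67 ± 0.30 SE, adjusted p = 1.71e-16). Of the glucocorticoid list, 8 in goblet cells and 10 in other cells passed as higher in the DC and 0 as lower. Of the mineralocorticoid list, 8 were higher and 2 lower in goblet cells, and 5 higher and 3 lower in other cells. Hsd11b2 was at 378 ± 64.8 CPM in DC goblet cells and 41.2 ± 6.64 CPM in Si8 goblet cells (log2 fold change 3.20 ± 0.14 SE, adjusted p = 3.44e-13). The PPAR list was even, with 8 higher and 8 lower in goblet cells and 8 higher and 9 lower in other cells. The PXR and CAR list had 3 higher and 10 lower in goblet cells, and 7 higher and 6 lower in other cells. The LXR list had 4 higher and 5 lower in goblet cells and 5 of each direction in other cells. The retinoid list had 4 higher and 6 lower in goblet cells and 5 higher and 7 lower in other cells. The intestinal repressor Isx, which retinoic acid induces, was at 18.7 ± 4.71 CPM in DC other cells and 159 ± 25.3 CPM in Si8 other cells (log2 fold change -3.09 ± 0.22 SE, adjusted p = 2.78e-09). The vitamin D list had 4 higher and 2 lower in goblet cells and 6 higher and 1 lower in other cells.

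The clock list had 4 higher and 3 lower in goblet cells and 8 higher and 2 lower in other cells, with Per3 at 30.8 ± 4.48 CPM in DC goblet cells and 5.29 ± 1.18 CPM in Si8 goblet cells (log2 fold change 2.54 ± 0.16 SE, adjusted p = 4.37e-11). The oestrogen-related receptor list had 2 higher and 3 lower in goblet cells and 2 higher and 6 lower in other cells, and its coactivator Ppargc1a was at 62.2 ± 12.6 CPM in DC goblet cells and 9.34 ± 0.418 CPM in Si8 goblet cells (log2 fold change 2.73 ± 0.13 SE, adjusted p = 8.53e-13). The coregulator list had 4 higher and 10 lower in goblet cells and 6 higher and 9 lower in other cells. The chaperone list had 1 higher and 4 lower in goblet cells and 2 higher and 4 lower in other cells. The thyroid hormone list had 3 of each direction in goblet cells and 2 higher and 3 lower in other cells. Of the other family genes, 2 were higher and 4 lower in goblet cells, and 2 higher and 3 lower in other cells, with Nr4a1 at 496 ± 149 CPM in DC goblet cells and 61.6 ± 25.3 CPM in Si8 goblet cells (log2 fold change 3.01 ± 0.43 SE, adjusted p = 3.73e-05), the same direction as its relatives Nr4a2 and Nr4a3.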

How the data were processed

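Counts of reads per gene, deposited by the authors as a table for each region, were used for every test. The deposited table of normalized signal, counts divided by size factors, was not used here. Per the labels' protocols the libraries were stranded total RNA after ribosomal RNA removal, read from both ends. Per the submitters' processing notes the build was mm10, with STAR 2.4.0f, HTSeq 0.6.1p1, DESeq2 1.14 and FastQC 0.11.2 named as tools. The sources used here do not give their parameters, strand setting included. Of 46882 rows, 4 with repeated symbols were left out.

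The 16 libraries were fitted together with edgeR 4.0.16 (R 4.3.3; TMM, filterByExpr, glmQLFit with robust estimation, glmQLFTest), with no covariate and Benjamini-Hochberg adjustment over the 16001 genes kept. A call is an adjusted p under 0.05. The comparisons were goblet minus other in each region, DC minus Si8 in each sort, and the difference of the goblet effects. CPM used TMM-scaled totals, and RPKM the union of exons in GENCODE M21 (GRCm38, the build mm10). Promoters are RefSeq's, GRCm38.p6. Library values are listed from low to high; n = 4 libraries a group, and no libraries of a group agreed within sampling noise. On simulated data, 200 genes were changed in DC goblet against DC other cells. The fit recovered 83.5% of genes changed by 1 on the log2 scale and 96.9% of those changed by 2, and 4.35% of its calls were false. Each simulated gene had the spread typical of its level, so these shares need not hold for genes that vary more, such as Nr1d1. Only 200 of 16001 genes were changed in the simulation, where 55.7% of genes were called in the data for this comparison. The share of false calls may therefore not carry over to the data.

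Members were given by library where called at 1 or more on the log2 scale in either direction, with a mean of at least 1 CPM and no overlap, at most 6 a direction and comparison; Pparg in Si8, Esrrg, Nr3c2, Thra, Nr3c1 and the genes given only by test were chosen after their values were seen, as were Nr4a3 and Rorb within a region. From context lists, at most 3 called genes of at least 5 CPM were named. The members and lists were chosen with earlier results of these data known. Alternatives were other scalings, filters, DESeq2 1.42.0, the fit on 8 libraries, a fold threshold and leaving out each library.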

Additional observations from a re-analysis of the deposited data

Results flagged for a closer look

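3 of 124 sets of 4 libraries (31 members in 4 groups) held a library far from the other 3, where chance gives about 1 in 20. Rxrb had 28.08 CPM in Si8 other library S1, against 35.9 to 36.8 CPM in the other 3. Nr6a1 had 10.88 CPM in DC goblet library S13, against 13.2 to 13.7 CPM. Nr2c1 had 10.35 CPM in DC other library S10, against 9.69 to 9.79 CPM.

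The goblet effect differed between DC and Si8 for 13 members by the test of the difference itself. The DC log2 effect minus the Si8 log2 effect was -2.25 for Nr1i3, -1.49 for Esrrg, -1.38 for Pparg, -0.67 for Nr3c2 and -0.42 for Vdr. It was 0.78 for Nr2c1, 0.75 for Nr4a2, 0.61 for Nr1h3, 0.50 for Nr2f2, 0.48 for Esrra, 0.39 for Nr3c1, 0.36 for Nr1i2 and 0.26 for Nr2c2.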

How the results depend on the processing

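The counts of members called stayed within 1.5 times under every other scaling, filter, test and set of libraries run. With a log2 fold change of at least 1 also required, 8 members passed for DC goblet minus DC other, beside 22.6% of all tested genes. There were 8 for Si8 goblet minus Si8 other, beside 23.4%, and 12 for DC goblet minus Si8 goblet, beside 25.8%. For DC other minus Si8 other there were 15, beside 32%, and for the difference of the goblet effects 3, beside 15.1%. Leaving out each library in turn gave 19 to 22, 18 to 21, 22 to 24, 23 to 25 and 9 to 15 members in the same order. Apart from that fold threshold, of 100 called member results 90 held in every alternative, 10 were lost in at least 1 and 0 reversed. The 10 were Pparg and Esrrg in Si8, Nr1d1 and Nr2c2 in DC, Nr1d1 between goblet groups, Nr2f2 between other groups, and the differences of Nr1i2, Nr2c2, Nr2f2 and Vdr; the cause was not tested. Of 55 member results that did not pass, 14 passed in at least 1 alternative: Esr1 in DC, Nr1d1, Nr2f6 and Nr4a2 in Si8, Nr1i2 and Rora between goblet groups, Nr2f6, Nr5a2, Rarg and Rora between other groups, and the differences of Nr1h2, Nr2f6, Nr6a1 and Ppara. No paired analysis was run, because the labels do not tie a goblet library to an other library. Each library number occurs once in the labels, so the numbers neither show nor exclude pairs. All results, those that did not pass included, come from unpaired fits. Nr1i3 in DC goblet cells, Rorb in Si8 and the 4 members not tested rest on few counts. Goblet sort and column type, and region, count table and depth, cannot be told apart.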
